A study of Mus musculus with 15 samples.

Results

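The genes described here encode the nuclear subunits of the 5 oxidative phosphorylation complexes, followed by RNA sequencing in regulatory T cells (Tregs) of mouse skin and lymph node (LN). Members were every row of the count table whose symbol begins with Nduf and a subunit letter with a number (complex I), is Sdha, Sdhb, Sdhc or Sdhd (complex II), or begins with Uqcr (complex III), Cox4 to Cox8 (complex IV) or Atp5 (complex V). The rule found 84 of the 24015 rows, and 79 of them were among the 13578 genes with enough counts to be tested. By complex, 36 of 37 members were tested in complex I, 4 of 4 in complex II, 8 of 8 in complex III, 14 of 18 in complex IV and 17 of 17 in complex V. The symbols also take in Ndufa4l2, Cox7a2l, Atp5s and Atp5sl, which are relatives or associated factors rather than classical subunits, and Ndufa4, which is placed in complex I by its name and is now regarded as a complex IV subunit.

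All 15 libraries came from adult C57BL/6 mice carrying Foxp3 cre-eyfp, in which Cre and the yellow fluorescent protein are produced where Foxp3, the defining Treg transcription factor, is active, and the sorted cells were CD45+CD3+CD4+YFP+. Wild type (WT) stands for Foxp3 cre-eyfp alone and cKO for Foxp3 cre-eyfp Rora fl/fl, so WT mice carry the Cre as well; Rora encodes the nuclear receptor RORα. The 5 groups of 3 libraries were WT and cKO Tregs from untreated dorsal skin and ears, WT and cKO Tregs from ears treated with MC903 (a vitamin D analogue that inflames skin, given in ethanol every other day, 4 applications), and WT Tregs from untreated skin-draining LN (superficial and deep axillary). Skin, not LN, was digested for 90 minutes with enzymes, and untreated skin, not MC903 skin, included the back, so digestion and tissue cannot be told apart, nor can body site, ethanol and MC903. Replicates are called biological in their titles, with nothing on pooling or litter, so p-values measure the spread between these samples.

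Depth ran from about 19774700 to 27745000 counts per library. All 10 Treg markers were detected in every library, at a summed 6188 to 12485 CPM (counts per 1000000, here always of the TMM-scaled library size). The sum hides differences between tissues. Foxp3 was 16.2 to 41.8 CPM in LN and 110 to 202 CPM in the skin groups, and Ctla4 295 to 306 and 2434 to 3785 CPM. Cd3e, a gene of T cells in general, went the other way, at 1318 to 1661 and 772 to 1090 CPM. Rora ranged over 1327 to 1510 CPM in untreated skin of WT mice and 822 to 1199 CPM in that of cKO mice, over 739 to 813 CPM and 473 to 632 CPM in their MC903 skin, and over 52.8 to 66.6 CPM in LN; the value covers the whole gene, including exons outside the deleted part. Markers of other cells were low beside those of Tregs but differed between libraries. Keratinocyte markers had the largest sums in untreated skin, at 389.7 to 851 CPM, beside 177 to 584 CPM in MC903 skin and 32.8 to 34.3 CPM in LN. Skeletal muscle markers summed to 172 CPM in replicate 2 of WT untreated skin and to 8.002 to 25.5 CPM elsewhere, B cell markers to 211 to 789 CPM in LN and 8.28 to 25.5 CPM in skin, and fibroblast and endothelial markers to between 46.1 CPM (replicate 3 of cKO untreated skin) and 509 CPM (replicate 3 of cKO MC903 skin).

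Oxidative phosphorylation is the route by which mitochondria make most of the ATP of a resting cell. Complex I takes electrons from NADH and complex II from succinate, complex III passes them to cytochrome c, and complex IV hands them to oxygen; I, III and IV pump protons, and complex V, the ATP synthase, uses the return flow to make ATP. Tregs are known for relying on this route more than effector T cells do. A set of subunits is encoded in mitochondrial DNA and is not analysed here, so what follows covers nuclear transcripts and says nothing of assembled complexes. In bulk RNA, a change in level per cell and a change in the share of cells that express a gene cannot be told apart.

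Promoters are shown for Sdha, the member with the lowest p in the skin and LN comparison and lower in skin, for Uqcrfs1, which was higher in skin and lies on the same chromosome, and for Atp5c1, which had the lowest p in the MC903 comparison of cKO cells. Each run is the 150 bases before the annotated start in RefSeq on GRCm38.p6, 5′ to 3′ in the direction of transcription, with matches to the recognition motif of NRF1, a factor known for driving nuclear genes of mitochondria, in capitals. The motif was GCGC, any base, then TGCGC, read on both strands.
Sdha (chr13:74350241-74350390, minus strand): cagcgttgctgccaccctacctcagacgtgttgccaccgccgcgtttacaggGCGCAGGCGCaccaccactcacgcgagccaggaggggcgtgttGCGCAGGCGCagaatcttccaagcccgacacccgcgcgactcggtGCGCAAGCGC
Uqcrfs1 (chr13:30545317-30545466, minus strand): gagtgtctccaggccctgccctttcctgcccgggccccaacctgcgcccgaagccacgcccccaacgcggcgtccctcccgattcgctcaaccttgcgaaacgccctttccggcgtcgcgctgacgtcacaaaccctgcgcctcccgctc
Atp5c1, second of 2 listed starts (chr2:10080433-10080582, minus strand): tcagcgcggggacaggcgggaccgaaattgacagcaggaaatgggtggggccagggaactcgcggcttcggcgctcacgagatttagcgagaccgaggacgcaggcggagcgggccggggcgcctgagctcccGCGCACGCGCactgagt
The Sdha run holds 3 matches, the Atp5c1 run 1, and the Uqcrfs1 run none of these letters. The same stretch before the other listed start of Atp5c1, not shown, holds none either.

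Promoters of 63 of the 79 tested members were found in the table, each spanning 250 bases before to 50 after the start. The NRF1 motif was in 16 of them (25.4%), against 5.19% of the 27025 gene symbols with a promoter. That background was not limited to tested genes and was not matched to the members for expression or base composition. The ETS core CCGGAAG, which the GABP factor reads, was in 16 (25.4%, against 9.93%), AAGATGGC, read by YY1, in 9 (14.3%, against 3.19%), and AAGGTCA, read by oestrogen-related receptors, in 7 (11.1%, against 5.38%), each on either strand; none of the 4 motifs contains another, and a match is a description, not a binding site. Of the 26 members lower in skin than LN that had a promoter, 9 held the NRF1 letters, 7 the YY1 letters and 4 the ETS letters. Of the 5 higher in skin 2, 0 and 1 did, and of the 32 members without a call 5, 2 and 11 did. Among the 30 members with a promoter that rose with MC903 in cKO cells 6 held NRF1, 5 YY1 and 10 ETS letters, beside 10, 4 and 6 of the 33 that did not pass the test. NRF1 and ETS letters thus occurred in members of either direction and in members without a call.

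Levels between genes were compared as CPM per kilobase of the principal transcript in GENCODE. In WT untreated skin the most abundant members on that scale were Atp5b, the catalytic β subunit of the ATP synthase, at 689 ± 136 (SD, n = 3), Cox4i1, the ubiquitous form of cytochrome oxidase subunit 4, at 681 ± 81.2, and Cox6a1 at 627 ± 105. The first places did not differ beyond that spread. In LN the order began with Atp5b at 675 ± 67.8 and Cox4i1 at 602 ± 71.4. Within complex II, Sdhb, the iron-sulphur subunit, stood at 219 ± 19.0 CPM per kilobase in WT skin and 230.2 ± 7.20 in LN, the membrane anchor Sdhd at 155 ± 16.5 and 142 ± 4.00, the flavoprotein Sdha at 52.1 ± 8.72 and 144 ± 10.8, and the other anchor, Sdhc, at 14.7 ± 3.34 and 27.8 ± 5.77. The order within the complex was Sdhb, Sdhd, Sdha, Sdhc in WT skin; in LN Sdha and Sdhd lay within each other's spread.

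**Figure D1:**
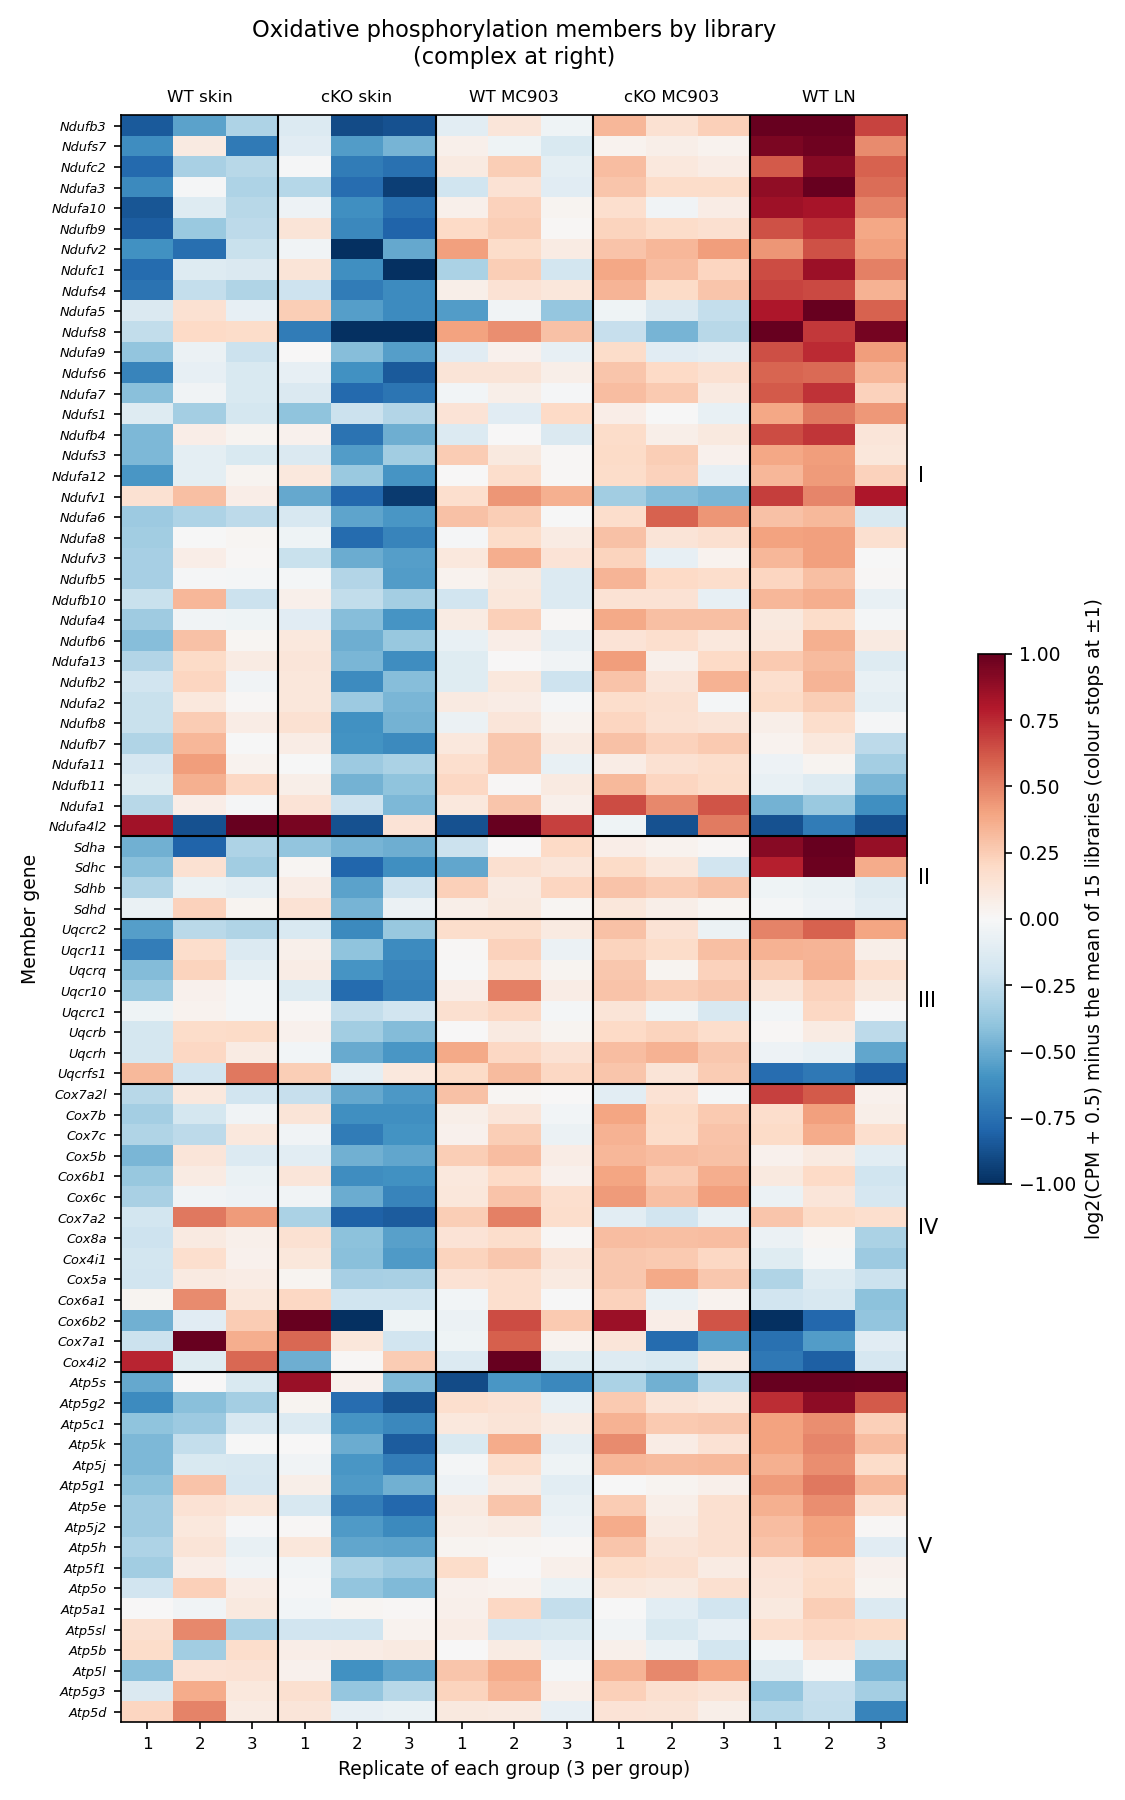
Heat map of 78 of the 79 tested members (rows, by complex and then by their WT skin minus LN change) in the 15 libraries (columns); colour is log2(CPM + 0.5) minus the gene's mean over libraries, stopping at ±1. Most complex I rows are red in the 3 LN libraries, Uqcrfs1 is blue there, and replicates 2 and 3 of cKO untreated skin are blue in most rows while replicate 1 is not.

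WT skin Tregs had lower transcripts of complex I and of the catalytic subunit of complex II than WT LN Tregs, while complex IV was close to even. Of the 79 members, 5 were higher and 32 lower in skin (edgeR quasi-likelihood test, Benjamini-Hochberg adjusted p under 0.05 over all 13578 genes), and 42 did not pass. Over all genes tested, 28.8% were higher and 28.8% were lower; the members' shares were unequal. The median log2 change was -0.30 over members and 0.01 over all genes. By complex, 1 member was higher and 22 were lower of 36 in complex I (median -0.54), 0 and 2 of 4 in complex II (-0.50), 1 and 1 of 8 in complex III (-0.16), 1 and 1 of 14 in complex IV (0.09), and 2 and 6 of 17 in complex V (-0.28). With library totals in place of scaling factors, which moved the median of all genes by -0.34, the split was 2 higher and 58 lower.

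Sdha oxidises succinate and links the citrate cycle to the respiratory chain. It stood at 406, 454 and 396 CPM in the LN libraries and at 155, 124 and 174 CPM in WT untreated skin. The LN libraries were all above the skin libraries, with no overlap, and the log2 change was -1.47 ± 0.13 (SE, edgeR adjusted p = 1.86e-07), a ratio of 0.36. Sdhc fell as well, by a log2 change of -0.92 ± 0.24 (SE, edgeR adjusted p = 0.00449), from 91.2, 105 and 68.5 CPM in LN to 39.5, 58.7 and 41.4 CPM in skin. Sdhb and Sdhd did not pass, at -0.07 (adjusted p = 0.664) and 0.13 (adjusted p = 0.423). The 4 subunits of complex II thus did not share a change: Sdha and Sdhc fell, and for Sdhb and Sdhd the skin and LN libraries overlapped.

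In complex I the accessory subunit Ndufb3 of the membrane arm stood at 86.8, 92.5 and 66.2 CPM in LN and 22.8, 28.3 and 33.2 CPM in WT skin. It was lower in every skin library, by a log2 change of -1.54 ± 0.21 (SE, edgeR adjusted p = 1.35e-05). Ndufs7, a core subunit at the site where ubiquinone is reduced, changed by -1.18 ± 0.20 (SE, edgeR adjusted p = 1.03e-04). Ndufs7 was 147, 150.4 and 107 CPM in LN and 49.7, 81.6 and 46.7 CPM in skin, where replicate 2 lay above the other two. Ndufs4, an accessory subunit of the NADH-oxidising module, changed by -0.98 ± 0.16 (SE, edgeR adjusted p = 7.95e-05), and the core iron-sulphur subunit of that module, Ndufs1, by -0.67 ± 0.12 (SE, edgeR adjusted p = 1.98e-04). Ndufs8 and Ndufv1 (the subunit that binds NADH) changed by -0.84 (adjusted p = 2.62e-04) and -0.49 (adjusted p = 0.00457). The subunits that fell thus came from the NADH module, the ubiquinone module and the membrane arm. Ndufa1 was the member of complex I that was higher in skin, at 99.7, 127 and 119.9 CPM against 87.3, 93.4 and 78.9 CPM, a log2 change of 0.42 ± 0.15 (SE, edgeR adjusted p = 0.0234). That call was lost in 6 of 15 alternatives. These were library totals, leaving out replicate 2 or 3 of WT skin, and leaving out replicate 1 or 3 of LN. The last left out replicate 2 of WT skin and replicate 3 of LN together.

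Complex III held opposite changes. Uqcrfs1, the Rieske iron-sulphur protein that takes an electron from ubiquinol, stood at 279, 195 and 320.2 CPM in WT skin and 131, 136 and 126 CPM in LN. All skin libraries were above all LN libraries, with a log2 change of 1.02 ± 0.15 (SE, edgeR adjusted p = 3.00e-05), a ratio of 2.02. Uqcrc2, a core scaffold protein of the same complex, was 191, 204 and 178 CPM in LN and 92.1, 112 and 109.6 CPM in skin, a log2 change of -0.87 ± 0.14 (SE, edgeR adjusted p = 5.62e-05). The 6 other subunits of complex III did not pass.

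In complex IV, Cox6a1 was higher in skin, at 314, 426 and 333 CPM against 269, 275 and 231 CPM (0.47 (adjusted p = 0.0123)). Cox7a2l, a factor that joins complexes III and IV into supercomplexes, was lower (-0.58 (adjusted p = 0.00743)), although 1 skin library, at 133 CPM, lay above the lowest LN library, at 128 CPM. Cox4i1 and Cox7a2 had log2 changes of 0.18 (adjusted p = 0.341) and 0.08 (adjusted p = 0.722), and Ndufa4 of -0.23 (adjusted p = 0.147). In complex V, members of the same enzyme went in both directions. The c-ring gene Atp5g2 and the central stalk gene Atp5c1 fell, by -1.21 ± 0.19 (SE, edgeR adjusted p = 5.44e-05) and -0.68 ± 0.13 (SE, edgeR adjusted p = 3.52e-04), as did Atp5j of the outer stalk (-0.59 (adjusted p = 0.00389)) and the associated factor Atp5s (-1.45 (adjusted p = 0.00266)). The stalk gene Atp5d rose, by 0.66 ± 0.13 (SE, edgeR adjusted p = 5.15e-04), and so did Atp5g3 (0.45 (adjusted p = 0.0195)), which encodes the same mature c subunit as Atp5g2. Atp5b was even, at 1319.5 ± 260.4 CPM in skin and 1294 ± 129.9 CPM in LN (SD, n = 3), with a log2 change of 0.03 (adjusted p = 0.871).

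Of these 37 calls, 28 held under every alternative tried, Sdha, Ndufb3, Uqcrfs1 and Uqcrc2 among them, while Ndufa1, Cox6a1 and Atp5g3 did not. Transcript length bears on the count. Genes under 1000 nt other than the members took 9.78, 12.01 and 11.0% of counts in the 3 WT skin libraries and 13.9, 14.04 and 11.5% in the LN libraries. Of the 49 members under 1000 nt, 16 were lower in skin (32.7%), beside 34.5% of the 785 other genes of that length. Among the 30 longer members 16 were lower (53.3%), beside 28.9% of 12059 other genes. Higher in skin were 6.12% of the short members, beside 21.7% of other short genes, and 6.67% of the longer members, beside 30.0% of other longer genes. These shares were not tested against each other, nor was the part of length in the result.

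Markers of other cells also differed between WT skin and LN. Keratinocyte markers summed to 453 to 851 CPM in WT untreated skin, with 0 to 1 of 15 markers at 0, and to 32.8 to 34.3 CPM in LN, with 5 to 8 of 15 at 0. Much of the skin sum was Sfn, at 217 to 306 CPM, and Epcam, at 126 to 164 CPM. Krt5 ranged from 0.177 to 60.1 CPM in WT skin. Krt10 went the other way, at 1.56 to 2.96 CPM in WT skin and 5.55 to 9.04 CPM in LN. B cell markers were higher in LN, at 789 CPM in replicate 3 and 244 and 211 CPM in replicates 1 and 2. Replicate 3 of LN was also the lowest of its group for 68 of the 79 members, and replicate 1 of WT untreated skin, which had the highest keratinocyte sum, the lowest of its group for 66. The part of these markers in the result was not tested.

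In the authors' deposited table of the same comparison, 41 members passed an adjusted p of 0.05, 31 of them lower and 10 higher in skin Tregs. Among them, 36 were called here in the same direction and 0 in the opposite one. The authors' deposited table gave Sdha a log2 ratio of LN over skin of 1.42 ± 0.14 (SE) and Uqcrfs1 one of -1.05 ± 0.15. Its 5 further calls were Ndufb11, Cox4i2, Cox7a1, Cox6a2 and Cox8b, all higher in skin, and Ndufa8 was called here alone. Cox7a1, Cox6a2 and Cox8b had most of their WT skin counts in replicate 2, at 49, 70 and 46. In that library skeletal muscle markers summed to 172 CPM.

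WT MC903 skin was compared with the same 3 LN libraries, so both contrasts share them. Here 6 members were higher and 21 lower of 79, beside 26.5% and 24.5% of all genes, with a median of -0.19 (all genes 0.02); with library totals the split was 2 and 39. In complex I, 15 of 36 were lower, led by Ndufa5 (-1.14 (adjusted p = 4.89e-04)), Ndufb3 (-0.99 (adjusted p = 8.61e-04)), Ndufa3 (-0.90 (adjusted p = 0.00106)) and Ndufs7 (-0.86 (adjusted p = 0.00178)), and Ndufa1 was higher (0.64 (adjusted p = 0.00195)). Sdha and Sdhc were lower, at -0.95 (adjusted p = 2.36e-05) and -0.78 (adjusted p = 0.0139). Sdha in these libraries, at 187, 217 and 248 CPM, lay above untreated WT skin and below LN without overlap. In complex III, Uqcrfs1 (1.01 (adjusted p = 4.47e-05)) and the hinge protein gene Uqcrh (0.45 (adjusted p = 0.0283)) were higher and Uqcrc2 lower (-0.35 (adjusted p = 0.0416)). Cox5a was the complex IV member that passed (0.35 (adjusted p = 0.0232)). In complex V, Atp5s (-2.03 (adjusted p = 2.58e-04)), Atp5g2 (-0.67 (adjusted p = 0.00744)) and Atp5g1 (-0.46 (adjusted p = 0.0376)) were lower, and Atp5g3 (0.53 (adjusted p = 0.00909)) and Atp5d (0.42 (adjusted p = 0.0142)) higher. Without replicate 1 of WT MC903 skin or without replicate 1 of LN the 27 calls became 17. Of the 27, 10 held under every alternative tried, Sdha, Ndufb3, Ndufa1 and Uqcrfs1 among them. The call of Uqcrc2 was kept in 4 of 14 alternatives, that of Atp5g1 in 7 and that of Uqcrh in 10.

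**Figure D2:**
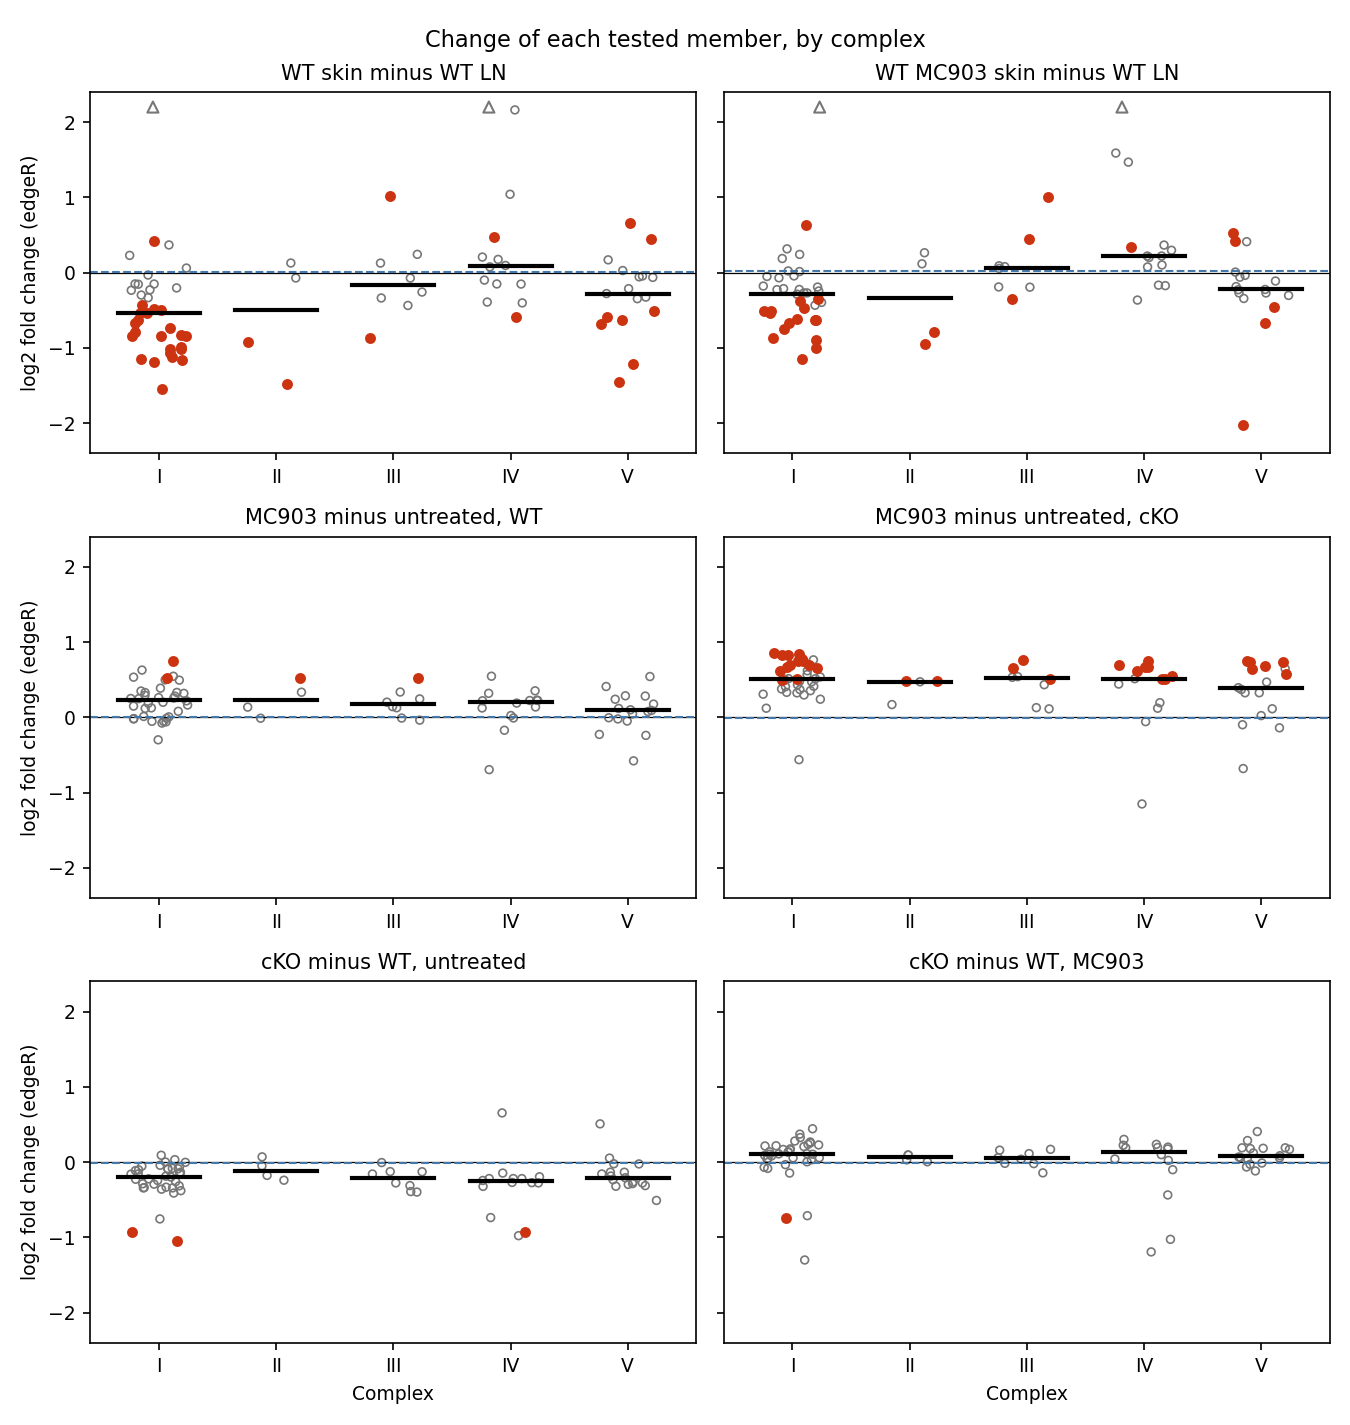
Log2 fold change of each tested member (points) by complex in 6 comparisons. Filled red points passed an adjusted p of 0.05, open points did not, triangles lie beyond the axis limit of 2.2, black bars are medians per complex, and the dashed line is the median of all genes; the complex I bar sits at -0.54 in WT skin minus LN, and in cKO cells 33 members rose with MC903.

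MC903 ears of cKO mice gave Tregs with higher transcripts of all 5 complexes than untreated cKO skin. Of the 79 members, 33 rose and 0 fell, beside 5.96% of all genes that rose. The median log2 change was 0.51 over members and -0.01 over all genes. The calls were 14 of 36 in complex I (median 0.51), 2 of 4 in complex II (0.48), 3 of 8 in complex III (0.52), 8 of 14 in complex IV (0.51) and 6 of 17 in complex V (0.39).

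Atp5c1 encodes the γ subunit, the shaft that turns inside the catalytic head. It stood at 304, 222 and 213 CPM in untreated cKO skin and 425, 401 and 403 CPM in cKO MC903 skin. The groups did not overlap, and the log2 change was 0.73 ± 0.13 (SE, edgeR adjusted p = 0.00258). Ndufa4 was 187, 151 and 134 CPM untreated and 264, 250.1 and 249.5 CPM with MC903, a log2 change of 0.69 ± 0.13 (SE, edgeR adjusted p = 0.00386). Cox6c, a small subunit of cytochrome oxidase, was 229.9, 166 and 148 CPM and 316, 289 and 313 CPM, a log2 change of 0.75 ± 0.15 (SE, edgeR adjusted p = 0.00467). In each of these the untreated replicate 1 was the highest of its group and nearest to the MC903 libraries. Further calls in complex I were Ndufa6 (0.83 (adjusted p = 0.00419)), Ndufa1 (0.75 (adjusted p = 0.00465)) and Ndufs4 (0.77 (adjusted p = 0.00653)), and Ndufs8 rose too (0.67 (adjusted p = 0.0125)). In complex II, Sdha and Sdhb rose, by 0.49 (adjusted p = 0.0263) and 0.48 (adjusted p = 0.0287). In complex III these were Uqcr10 (0.77 (adjusted p = 0.00966)), Uqcrh (0.66 (adjusted p = 0.0156)) and Uqcrc2 (0.51 (adjusted p = 0.0241)), and in complex IV Cox5b (0.67 (adjusted p = 0.00906)), Cox5a (0.51 (adjusted p = 0.0129)), Cox7c (0.69 (adjusted p = 0.0181)) and Cox4i1 (0.51 (adjusted p = 0.0454)). In complex V, Atp5j (0.73 (adjusted p = 0.00702)), Atp5l (0.74 (adjusted p = 0.0188)) and Atp5e (0.68 (adjusted p = 0.0196)) passed. Those that did not pass included Atp5b (-0.14 (adjusted p = 0.559)), Uqcrfs1 (0.13 (adjusted p = 0.625)), Ndufs1 (0.30 (adjusted p = 0.118)) and Ndufv1 (0.33 (adjusted p = 0.114)).

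The count rests on which untreated cKO libraries enter. Without replicate 1 of cKO untreated skin 59 members were called, and without replicate 2 or replicate 3 the count was 7. Leaving out cKO MC903 replicate 1, 2 or 3 gave 16, 14 or 16. The 7 members called under every alternative were Atp5c1, Ndufa4, Ndufa6, Ndufa1, Cox6c, Ndufs4 and Atp5j. Replicate 1 of cKO untreated skin was the highest of its group for 74 of the 79 members. It also had the highest fibroblast and endothelial marker sum there (213 CPM, against 98.1 and 46.1 CPM) and the highest share of counts in short genes other than members (11.7%, against 9.13 and 9.10%). Its adipocyte marker sum was 73.4 CPM, against 3.19 and 4.57 CPM. Within that sum Cidea stood at 38.7 CPM and Fabp4 at 34.3 CPM. Adipoq was at 0.254 CPM, and 5 of the 9 markers were at 0, Plin1, Cidec and Lep among them. The sum is thus not a measure of adipocyte RNA. Between the groups, keratinocyte markers summed to 389.7 to 579 CPM untreated and 177 to 382 CPM with MC903, and mast cell, basophil and granulocyte markers to 0.0431 to 0.625 CPM and 7.73 to 39.4 CPM, both without overlap. Within the keratinocyte sum, Sfn was 130.2 to 172 CPM in untreated cKO skin and 32.3 to 42.3 CPM with MC903. The keratins Krt14 and Krt5 overlapped between the groups. In replicate 3 of each group, Krt14 was 20.04 CPM untreated and 73.9 CPM with MC903, and Krt5 8.16 and 16.8 CPM. Replicates 1 and 2 of cKO MC903 skin lay below all untreated cKO libraries for both keratins. The part of any of these marker sums in the rise was not tested.

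That share was 12.8, 12.3 and 12.01% in the cKO MC903 libraries. Of the 49 members under 1000 nt 24 rose (49.0%), beside 18.5% of other genes of that length. Among the 30 longer members 9 rose (30.0%), beside 5.03% of other genes. The medians were 0.57 for short members, 0.35 for other short genes, 0.43 for longer members and -0.04 for other longer genes. The members' share was the higher in both length classes, and short genes as a class rose too; the part of length in the result was not tested further.

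**Figure D3:**
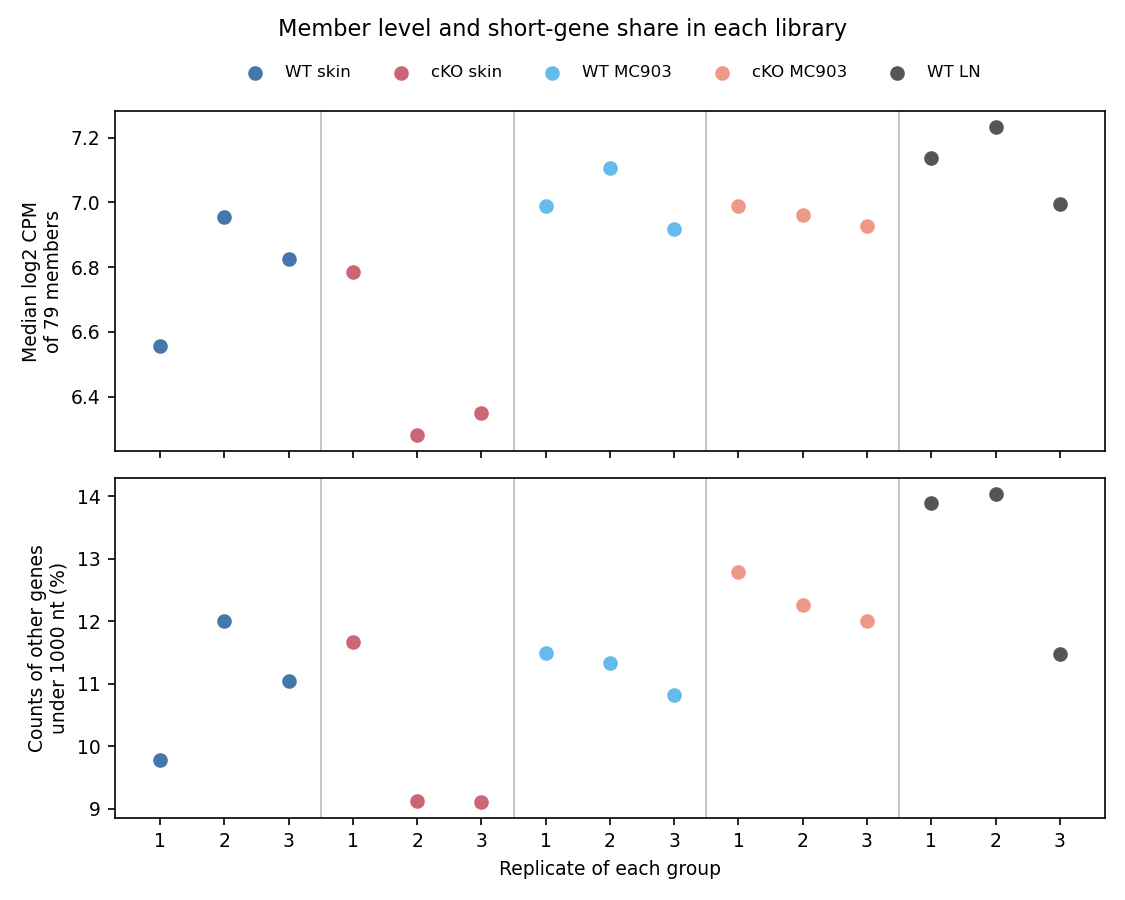
Median log2 CPM of the 79 members (top) and percent of counts in genes under 1000 nt other than the members (bottom) in each of the 15 libraries, coloured by group; points are single libraries. Replicates 2 and 3 of cKO untreated skin are lowest in both panels and replicates 1 and 2 of LN highest in both.

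In WT cells the same comparison gave 4 members higher and 0 lower with MC903, beside 5.03% of all genes higher, and a median of 0.19 (all genes 0.01). They were Sdha, at 155, 124 and 174 CPM untreated and 187, 217 and 248 CPM with MC903 (0.53 ± 0.13 (SE, edgeR adjusted p = 0.0188)), Uqcrc2 (0.52 (adjusted p = 0.0228)), and from the NADH module of complex I Ndufv2 (0.74 (adjusted p = 0.0292)) and Ndufs4 (0.52 (adjusted p = 0.0475)). The count of 4 in 79 is near that background, and none of these calls held under every alternative: 1 to 4 members were called when single libraries were left out, 1 in a fit on these groups alone, 8 by DESeq2 and 16 with library totals. The untreated and MC903 libraries of these 4 genes did not overlap, and the same held for other members. How often that occurred over all genes is not given, so nothing is read from it. Nearest to the threshold in the other complexes were Cox5b (0.35 (adjusted p = 0.14)) and Atp5c1 (0.41 (adjusted p = 0.0541)). In the WT groups, fibroblast and endothelial markers summed to 98.6 to 182 CPM untreated and 144 to 405 CPM with MC903. Within that sum Pecam1 was 20.3 to 34.9 and 82.2 to 92.8 CPM, and 107 to 155 CPM in LN. Col1a1, Col1a2, Col3a1 and Dcn lay below all untreated libraries in MC903 replicates 1 and 2 and above them in replicate 3. Sparc left the untreated range in replicate 3 alone. Keratinocyte markers summed to 453 to 851 CPM untreated and 207 to 584 CPM with MC903. Of these, Sfn was 217 to 306 and 71.0 to 101 CPM, while Krt14 overlapped. Short genes other than members took 10.8 to 11.5% of counts with MC903. The part of any of these was not tested.

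The difference between the MC903 responses of cKO and WT cells was tested as an interaction. No member passed (0 of 79, beside 0% of all genes), 11 had an unadjusted p under 0.05 by edgeR and 13 by DESeq2, which called 0 as well. The share of all genes with an unadjusted p under 0.05 is not given. The median was 0.32 over members, -0.01 over all genes, and 68 of 79 values were positive, beside 49.3% of all genes. The lowest p in each complex belonged to Ndufa1 (0.53), Sdhc (0.34), Uqcrb (0.47), Cox5a (0.37) and Atp5o (0.44), with edgeR adjusted p from 0.866 to 0.938. The 33 calls in cKO and the 4 in WT are therefore not shown to differ.

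**Figure D4:**
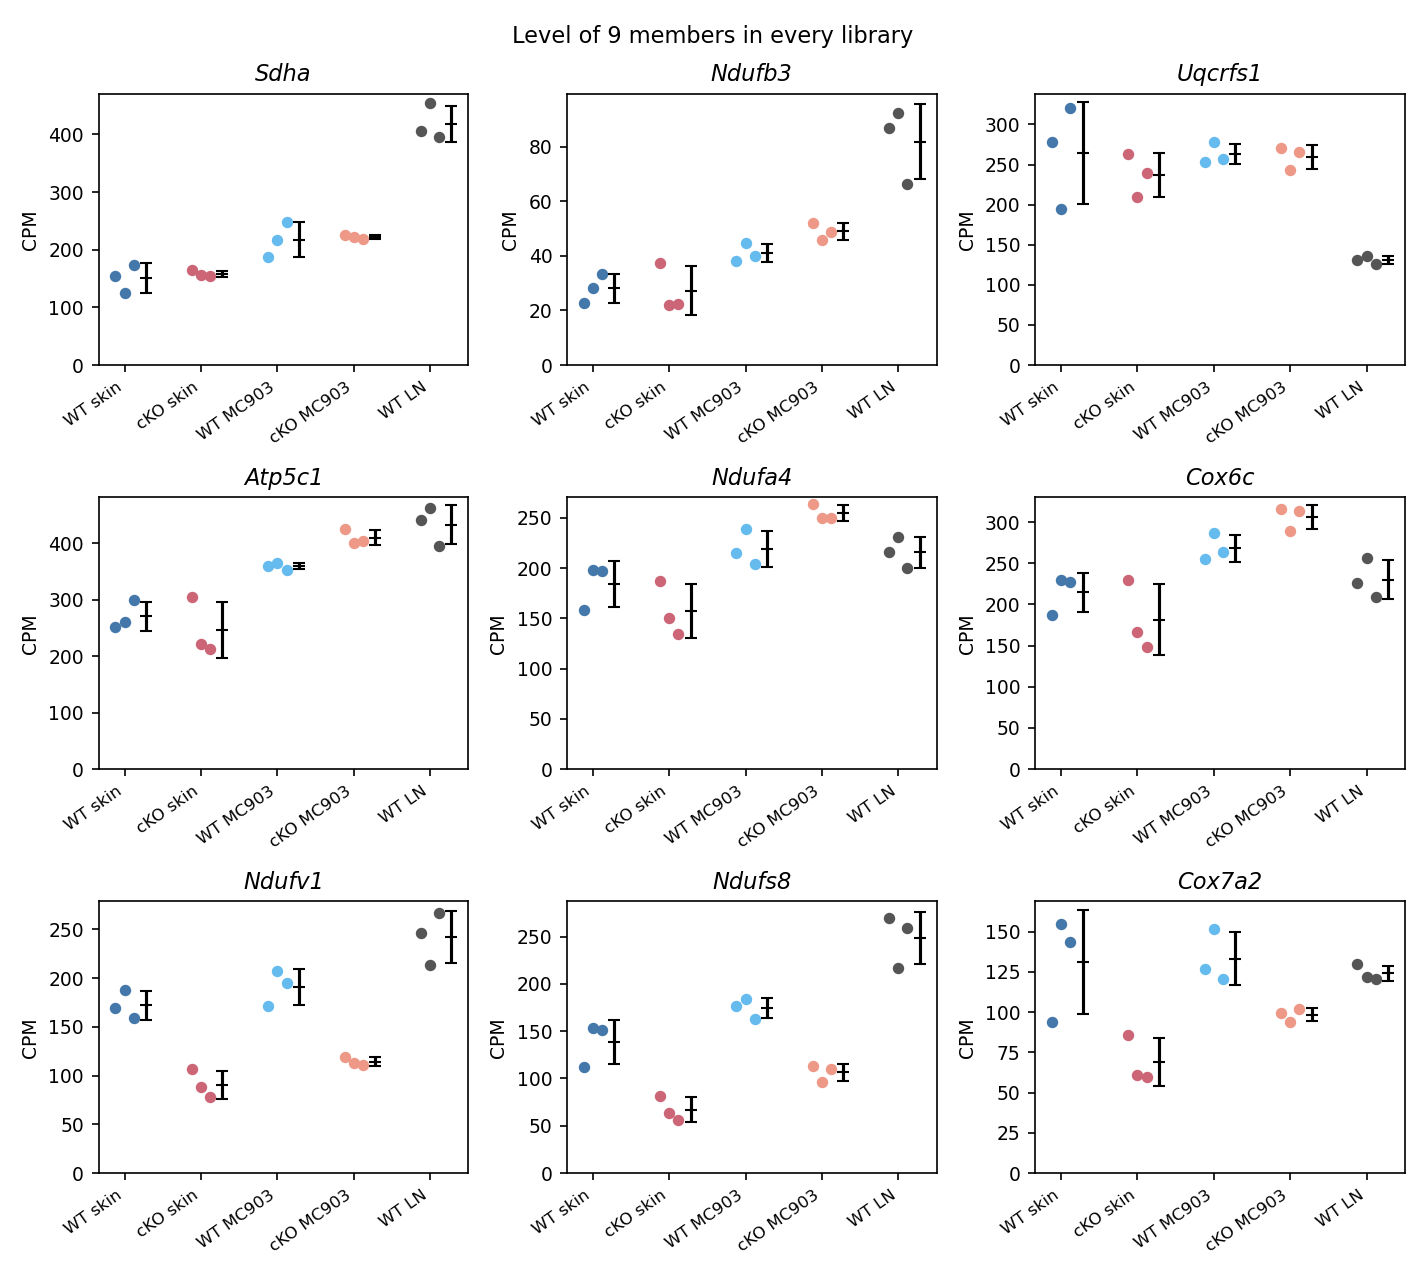
Level (CPM, axes from 0) of 9 members in every library; points are libraries, bars beside them the mean and SD (n = 3). Sdha and Ndufb3 are highest and Uqcrfs1 lowest in LN, and Ndufv1 and Ndufs8 are lower in both cKO groups than in the WT groups.

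cKO Tregs had lower Ndufv1, Ndufs8 and Cox7a2 than WT Tregs, and no other member differed by genotype at the threshold. These 3 genes lie in chromosome segments that may differ between the mouse lines, Ndufs8 and Ndufv1 near each other on chromosome 19 and Cox7a2 on chromosome 9, which also carries Rora, so genotype and segment cannot be told apart. In untreated skin 0 members were higher and 3 lower, beside 0.405% of all genes lower. Ndufv1 stood at 169, 188 and 159 CPM in the WT libraries and 106, 88.1 and 78.0 CPM in those of cKO. The groups did not overlap, and the log2 change was -0.92 ± 0.13 (SE, edgeR adjusted p = 0.00216). Ndufs8, an iron-sulphur subunit that carries electrons towards ubiquinone, was 112, 153 and 152 CPM in the WT libraries and 81.8, 63.2 and 55.9 CPM in the cKO ones, without overlap (-1.05 ± 0.16 (SE, edgeR adjusted p = 0.00288)). Cox7a2, the form of cytochrome oxidase subunit 7a found in most tissues, was 94.1, 155 and 144 CPM in the WT libraries and 85.9, 61.0 and 60.0 CPM in the cKO ones, also without overlap (-0.92 ± 0.18 (SE, edgeR adjusted p = 0.0161)). The Cox7a2 call was lost without replicate 2 or 3 of either group and in a fit on these groups alone, with adjusted p up to 0.147 over the alternatives, while those of Ndufv1 and Ndufs8 were kept.

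In MC903 skin 0 members were higher and 1 lower, beside 0.177% of all genes lower. Ndufv1 was 171, 207 and 195 CPM in the WT libraries and 119, 113 and 111 CPM in the cKO ones (-0.74 ± 0.13 (SE, edgeR adjusted p = 0.022)). Ndufs8, at 176, 184 and 163 CPM and 113, 96.5 and 109.9 CPM, did not pass (-0.71 (adjusted p = 0.0762)) although the groups did not overlap, and Cox7a2 had -0.44 (adjusted p = 0.616). The Ndufv1 call here was lost when any of 5 of the 6 libraries was left out, WT replicate 1 being the exception; its log2 change lay between -0.82 and -0.68 under all 14 alternatives. Averaged over both treatments, 3 members were lower and 0 higher, beside 0.862% of all genes lower: Ndufv1 at -0.83 ± 0.09 (SE, edgeR adjusted p = 8.92e-05), Ndufs8 at -0.88 ± 0.11 (SE, edgeR adjusted p = 2.84e-04) and Cox7a2 at -0.68 ± 0.12 (SE, edgeR adjusted p = 0.00693), each called under every alternative. As these 3 genes were the only members called, edgeR called 0 of the other 76 in untreated skin, in MC903 skin and averaged. Among those 76, 10, 1 and 1 had an unadjusted p under 0.05, and the shares over all genes are not given.

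Neighbouring genes were counted in the averaged comparison, taking the 10 tested genes on each side in RefSeq order. Beside Ndufs8, 5 of 19 were called, all lower in cKO: Ndufv1, Chka, Gstp1, Tcirg1 and 1810055G02Rik. Around Ndufv1, the count was 5 of 20 with Ndufs8 in its own place. These windows overlap, and their other called genes were the same, so they are not separate observations. Around Cox7a2 the count was 0 of 20, and over all genes 1.75% were called. For comparison, it was 1 of 20 around Sdha, 1 of 20 around Uqcrfs1 and 0 of 20 around Cox4i1. The fall of Ndufs8 and Ndufv1 thus came with a fall of nearby genes, and that of Cox7a2 did not within this window.

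The other members leaned one way in untreated skin and the other in MC903 skin without passing. Leaving out Ndufv1, Ndufs8 and Cox7a2, in untreated skin 69 of 76 log2 changes were negative and 7 positive, while 49.1% of all genes were positive. Their median was -0.21 (all genes -0.00), and 10 had an unadjusted p under 0.05, a share not given over all genes. The lowest p in complexes without a call belonged to Sdhd (-0.18 (adjusted p = 0.659)), Uqcrh (-0.40 (adjusted p = 0.345)) and Atp5e (-0.51 (adjusted p = 0.252)). In MC903 skin 61 of 76 were positive, beside 48.6% of all genes, with a median of 0.11. The corresponding members were Sdhb (0.09 (adjusted p = 0.994)), Uqcrc1 (-0.14 (adjusted p = 0.947)) and Atp5j (0.29 (adjusted p = 0.814)). Averaged, they were Sdhd (-0.09 (adjusted p = 0.793)), Uqcrc1 (-0.13 (adjusted p = 0.566)) and Atp5e (-0.23 (adjusted p = 0.509)), at a median of -0.04. Sdha, which separated skin from LN, had 0.07 (adjusted p = 0.895) in untreated and 0.03 (adjusted p = 1) in MC903 skin. The lean in untreated skin sat in replicates 2 and 3: the median log2 CPM of members was 6.79 in cKO replicate 1 and 6.28 and 6.35 in replicates 2 and 3, against 6.56, 6.95 and 6.83 in WT. Other genes under 1000 nt had a median of -0.15 in the same comparison and other longer genes 0.01, beside -0.26 and -0.13 for members; the part of length was not tested further.

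Tissue-restricted forms of subunits were near the floor of detection. Cox6a2 and Cox8b, which belong to heart and skeletal muscle, were below the count filter and not tested. Cox6a2 had 70 counts in replicate 2 of WT untreated skin and at most 10 in any other library. Cox8b had 46 there and at most 6 elsewhere, and Cox7a1, the muscle form of subunit 7a, had 49 there and 2 to 28 elsewhere. The library high in all 3 was the one in which skeletal muscle markers summed to 172 CPM; their part in the WT skin values was not tested. Cox4i2, the form of subunit 4 known from lung and low oxygen, was 0.993, 0.309 and 0.808 CPM in WT skin and 0.0355, 0 and 0.282 CPM in LN, and Cox4i1 449, 570.1 and 524 and 466, 502 and 396 CPM. Ndufa4l2, a hypoxia-inducible relative of Ndufa4, ranged from 0 to 54 counts and was at 0 in 6 libraries spread over all 5 groups. Neither was called by edgeR in any comparison, while Cox4i2 passed in the authors' deposited table of LN against skin (adjusted p = 0.0446).

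Cox7b2 and Cox8c, known from testis, had 0 counts in all 15 libraries, which allows up to 3 counts, or 0.0941 to 0.162 CPM, in each. Ndufs5, a complex I subunit needed in most cells, was also listed at 0 in all 15 libraries and has no value in the authors' deposited table. No level is given for it. Many members have near-identical processed copies in the genome and the counting of shared reads is not given in the sources used here, so absolute levels of single members are uncertain.

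Other genes that serve the same complexes were taken from a list of assembly factors, the proteins that build the complexes and insert their cofactors, of which 40 of 45 were tested. In WT skin against LN, 3 were higher and 27 lower, beside 28.8% and 28.8% of all genes, with a median of -0.96. Lower were Bcs1l, which inserts the Rieske protein into complex III (-3.20 (adjusted p = 3.28e-05)), Ndufaf1 and Ndufaf7 of complex I (-2.03 (adjusted p = 2.15e-06) and -1.51 (adjusted p = 2.39e-06)), Cox15, a haem a synthesis enzyme (-1.95 (adjusted p = 1.61e-06)), and Atpaf1 of complex V (-2.09 (adjusted p = 4.73e-06)). Higher were the copper-handling factors Cox11 (1.16 (adjusted p = 1.21e-06)) and Cox19 (0.85 (adjusted p = 5.90e-04)), and Ttc19 (1.66 (adjusted p = 0.00472)). Bcs1l stood at 1.94, 0.663 and 1.94 CPM in WT skin and 12.5, 14.7 and 14.5 CPM in LN, so Uqcrfs1 and the factor that inserts its product went in opposite directions. WT MC903 skin against the same LN libraries had 4 higher and 25 lower, beside 26.5% and 24.5% of all genes. With MC903, 5 rose and 2 fell in WT cells, beside 5.03% and 5.44% of all genes, and 3 rose and 1 fell in cKO cells, beside 5.96% and 5.3%; Cox17, a copper chaperone of complex IV, rose in both, by 0.67 (adjusted p = 0.0247) and 1.29 (adjusted p = 4.44e-04), as did Ndufaf1 and Surf1. By genotype 0 of 40 were called by edgeR in untreated skin, in MC903 skin or averaged. An unadjusted p under 0.05 was found for 4, 3 and 3, shares not given over all genes.

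Subunits and electron carriers that the symbol rule leaves out numbered 10. In WT skin against LN 3 of them were higher and 4 lower, near the 28.8% and 28.8% of all genes. Cycs, cytochrome c, was higher, at 305, 387 and 337 CPM in skin and 218, 257 and 213 CPM in LN (0.58 (adjusted p = 0.00153)), as were Etfdh (0.76 (adjusted p = 9.57e-04)), which passes electrons from fatty acid oxidation to ubiquinone, and Usmg5 (1.01 (adjusted p = 5.52e-05)) of the ATP synthase. Lower were Dhodh (-1.75 (adjusted p = 4.28e-05)), the pyrimidine synthesis enzyme that feeds ubiquinone, Etfa (-0.92 (adjusted p = 2.22e-05)), Ndufab1 (-0.51 (adjusted p = 0.0149)) and Etfb (-0.47 (adjusted p = 0.0436)).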

How the data were processed

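Each of 15 libraries measured total RNA of sorted Tregs with the SMART-Seq v4 low input kit and 75 bp single-end reads, per the labels' protocols. The authors deposited raw counts per gene symbol; alignment used TopHat2 2.0.6 on mm9 per the submitters' processing notes, and the counting tool and its treatment of shared reads are not given in the sources used here. The authors' deposited table of LN against skin holds log2 fold changes, their errors and adjusted p-values, made with DESeq2 per the file headers and notes. Replicates were not pooled in the files. Total counts per library were 19774700 to 27745000.

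From the counts, edgeR 4.0.16 (limma 3.58.1, R 4.3.3) filtered genes with filterByExpr, scaled with TMM (factors 0.903 to 1.26) and fitted 1 robust quasi-likelihood model with 5 groups; 8 contrasts were tested, and p-values adjusted by Benjamini-Hochberg over 13578 genes. The common dispersion was 0.138 (a coefficient of variation of 37.2% between replicates). SE is the log2 change divided by the root of F. The script was tested on simulated data. A fold change compares scaled libraries, so a change in total RNA is not seen. Lengths are those of principal transcripts in GENCODE, promoters those of RefSeq on GRCm38.p6, and the files' build differs, so no coordinates were joined between them. Amplification of cDNA from low input can weigh short and long transcripts differently in each library, so the share of short genes is given beside the results.

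Members and gene lists were chosen with earlier results of these data known. Named genes are every called member where at most 10 were called, otherwise up to 4 per complex and direction with the smallest adjusted p, the member with the smallest p in a complex without a call, members picked for their role, and members below the filter; 1 member that this rule names is not reported here. Alternatives were DESeq2 1.42.0, relative log expression factors, library totals, no filter, and at least 50 counts in 3 libraries. Others were a fit on the compared groups, a replicate block, and each library left out. The genotype counts were also taken without 3 genes, by a recount with no new fit. Chosen after seeing the data were fits that omit the 3 libraries with most fibroblast and endothelial marker RNA, and without replicate 2 of WT skin and replicate 3 of LN together. A value of 0 counts is given with an upper limit of 3 counts, which covers counting error only.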

Additional observations from a re-analysis of the deposited data

How the results depend on the processing

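The counts of members called were recomputed under each alternative, and for the calls of single members 1318 values kept the call, 249 lost it and none changed sign; members without a call were not followed one by one. DESeq2 called 2 members in cKO against WT MC903 skin and 8 with MC903 in WT cells. Library totals alone called 60 members in WT skin against LN, 41 in WT MC903 skin against LN and 16 with MC903 in WT cells; the first of these moved the median of all genes by -0.34. A fit on the compared groups alone called 2 in cKO against WT MC903 skin and 1 with MC903 in WT cells. A recount without Ndufs8, Ndufv1 and Cox7a2, the only members that the main fit called by genotype, left each of the 3 genotype counts at 0. That outcome was fixed by the choice of genes. Omitting the 3 libraries with most fibroblast and endothelial marker RNA, an alternative chosen after seeing the data, 0 were called in cKO against WT MC903 skin; over the alternatives the log2 change of Ndufv1 there stayed between -0.82 and -0.68. Leaving out each library in turn gave 31 to 38 calls in WT skin against LN, 17 to 25 in WT MC903 skin against LN, 2 to 3 in cKO against WT untreated skin, 0 to 1 in cKO against WT MC903 skin, 1 to 4 with MC903 in WT cells, 7 to 59 with MC903 in cKO cells, 3 for the averaged genotype and 0 for the interaction. The cause of these changes was not tested. Replicate numbers recur across groups, and no clear pairing of libraries by number was seen. Deviations of same-numbered libraries had correlations from -0.28 to 0.26 (median 0.02, 30 pairs), and 7 of 15 libraries correlated best with their own number. These values cannot exclude a pairing. With the replicate number as a block the counts were 36, 25, 3, 1, 3, 32, 0 and 3 for WT skin against LN, WT MC903 skin against LN, genotype in untreated and in MC903 skin, MC903 in WT and in cKO cells, interaction and averaged genotype. Depth limits the members near 0 counts, and 3 libraries a group limit small changes.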

Other observations

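Several genes that feed the respiratory chain were also lower in WT skin than in LN. Of 18 genes of pyruvate dehydrogenase and the citrate cycle, 0 were higher and 10 lower in WT untreated skin, beside 28.8% and 28.8% of all genes, with a median log2 change of -0.40. Idh2, the NADP-dependent isocitrate dehydrogenase of mitochondria, stood at 24.0, 22.8 and 28.5 CPM in skin and 54.4, 60.4 and 58.8 CPM in LN (-1.21 (adjusted p = 1.04e-05), edgeR). Suclg1, a subunit of succinyl-CoA ligase, the step before Sdha, changed by -1.43 (adjusted p = 9.40e-06), and citrate synthase, Cs, by -0.73 (adjusted p = 1.52e-04). In WT MC903 skin 7 of the 18 were lower and 0 higher against the same LN libraries, beside 24.5% and 26.5% of all genes. With MC903, 1 of 18 rose in WT cells (Cs, 0.47 (adjusted p = 0.0271)) and 1 in cKO cells (Idh3b, 0.60 (adjusted p = 0.0241)), near the 5.03% and 5.96% of all genes that rose.

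Carriers and regulators held calls in both directions. Of 13 carriers and porins of the mitochondrial membranes, 3 were higher and 5 lower in WT skin than in LN, near the shares of all genes (28.8% and 28.8%). Slc25a3, which brings in the phosphate that the ATP synthase uses, was 839.7, 1222 and 939 CPM in skin and 250.02, 273 and 248 CPM in LN (1.96 (adjusted p = 4.89e-09)), and the malate carrier Slc25a11 was lower (-1.78 (adjusted p = 2.20e-07)). Of 17 regulators of mitochondrial gene expression, 4 were higher and 8 lower, beside the same shares. Gabpb1, a subunit of the GABP factor, was 324, 297 and 335 CPM in skin and 85.5, 84.1 and 89.5 CPM in LN (1.88 (adjusted p = 2.27e-08)), and Yy1 rose too (1.99 (adjusted p = 1.82e-07)). Tfam, which packs and transcribes mitochondrial DNA, was lower (-1.02 (adjusted p = 3.70e-05)), as was Myc (-1.44 (adjusted p = 1.12e-05)), and Myc rose with MC903 in WT cells (0.92 (adjusted p = 0.00664)).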
